A study of Homo sapiens with 12 samples.

Results

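The genes described here are 39 genes of DNA replication in S phase, most of them known targets of the E2F transcription factors. They were chosen by gene name, with earlier results of these data known, and make up 39 of the 58735 genes in the count table. In a quiescent or early G1 cell the retinoblastoma protein RB holds E2F factors inactive. When cyclin-dependent kinases phosphorylate RB, E2F is released and switches on the genes for replication origins, the replicative helicase, DNA polymerases and deoxynucleotide synthesis, among them cyclin E, which drives the kinases further. The same genes are widely used as a readout of how much of a culture is in S phase, and in breast cancer cells the RB and E2F pathway is often altered.

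The RNA came from MDA-MB-231, an established human triple-negative breast cancer line, in 4 groups of 3 libraries. The cells carried a guide RNA against UFL1 (sgUFL1), a guide RNA against UFM1 (sgUFM1), or a control guide (sgCtrl), and the control libraries were labelled separately for each guide. UFM1 is a ubiquitin-like protein and UFL1 the ligase that attaches it to its targets. The series title speaks of knockdown and the design text of knockout. No drug, time point, guide sequence, clone or Cas9 construct is given in the labels, and nothing says whether replicate libraries stem from separate cultures. The p-values therefore reflect only how far replicate libraries varied, and that variation may be technical.

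For 6 of the 12 libraries the deposited tables of counts and of FPKM gave different names. The other 6, the sgUFM1 libraries and the controls labelled for sgUFL1, had the same name in each. Set 1 denotes the 3 libraries named sgUFL1 in the count table and sgCtrl for sgUFM1 in the FPKM table, and set 2 the 3 libraries with the opposite names. Each comparison of a guide with its own controls is therefore given under both namings. UFL1 was measured at 19.8, 24.5 and 30.3 CPM (counts scaled to the library's total) in the controls for sgUFL1, 16.7, 19.3 and 18.1 in set 1, 12.8, 11.5 and 13.2 in set 2, and 20.5, 25.1 and 23.7 in the sgUFM1 libraries, so it was lowest in set 2. UFM1 was lowest in the sgUFM1 libraries, at 37.2, 39.7 and 39.3 CPM, against 49.5 to 71.3 CPM in the other 9. Totals ran from 15342793 to 18033331 counts. The mean GC content of the transcripts counted, weighted by count, was 47.59% to 48.66% in the controls for sgUFL1 and 49.09% to 50.26% in the other 9 libraries. The line's mesenchymal markers VIM, CD44, CAV1, MSN, AXL and EGFR stood at 182.4 to 1519 CPM in every library. Of the receptors that a triple-negative line lacks or has at low level, ESR1 and PGR were at no more than 1.16 CPM and ERBB2 at 40.6 to 71.9 CPM. Of leukocyte markers, CD3E had 0 counts in all 12 libraries, PTPRC and ITGAM were at no more than 0.388 CPM, and CD14 was at 2.07 to 4.2 CPM. Of endothelial and fibroblast markers, CDH5, DCN and LUM were at no more than 0.242 CPM, VWF at no more than 1.02 CPM, and PDGFRB at 3.76 to 8.88 CPM.

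Promoter sequences are shown for the members with the smallest p across the 4 groups that hold an E2F-type motif, since E2F binding is what links most of the list. Sequences were taken from RefSeq on GRCh38.p14, and the motifs TTTCGCGC, TTTGGCGC, TTTCCCGC and TTTGGCGG were searched on both strands in the 250 bases before the start. At least 1 was present in 16 of the 35 members that could be matched (45.7%), against 3.47% of 27305 genes. The CCAAT box, the motif of the factor NF-Y, which often stands beside E2F sites, was present in 60% of members and 37% of genes. A match is a run of letters and does not show that a factor binds there. Of the 12 members with the smallest p, CCNE2 was not searched and 5 held a motif. Their 160 bases before the start are printed 5′ to 3′ along the gene, with the matches in capitals.

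CDT1: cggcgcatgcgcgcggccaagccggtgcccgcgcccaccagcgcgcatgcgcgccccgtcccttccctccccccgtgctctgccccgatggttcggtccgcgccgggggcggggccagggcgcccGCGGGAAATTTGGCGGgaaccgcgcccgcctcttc
E2F1: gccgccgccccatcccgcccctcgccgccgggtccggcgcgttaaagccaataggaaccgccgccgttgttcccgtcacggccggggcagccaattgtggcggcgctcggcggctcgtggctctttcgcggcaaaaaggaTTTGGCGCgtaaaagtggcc
POLA1: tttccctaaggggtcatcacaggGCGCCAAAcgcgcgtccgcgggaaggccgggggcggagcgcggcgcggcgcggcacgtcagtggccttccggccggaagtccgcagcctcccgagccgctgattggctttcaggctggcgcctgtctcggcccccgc
CDC6: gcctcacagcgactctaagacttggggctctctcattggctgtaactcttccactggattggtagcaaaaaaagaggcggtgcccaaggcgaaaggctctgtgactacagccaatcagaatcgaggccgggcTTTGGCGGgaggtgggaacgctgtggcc
MCM6: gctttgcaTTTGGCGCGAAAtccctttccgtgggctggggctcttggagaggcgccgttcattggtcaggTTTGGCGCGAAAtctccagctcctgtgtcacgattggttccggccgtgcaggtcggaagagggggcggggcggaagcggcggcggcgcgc

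The regions are chr16:88803629-88803788 on the plus strand for CDT1, chr20:33686386-33686545 on the minus strand for E2F1, chrX:24693758-24693917 on the plus strand for POLA1, chr17:40287719-40287878 on the plus strand for CDC6 and chr2:135876444-135876603 on the minus strand for MCM6. In MCM6 the same 12-letter run appears at 2 places, 152 and 90 bases before the start, and each holds TTTGGCGC and the reverse complement of TTTCGCGC, overlapping by 4 letters. In CDT1 a reverse-complement TTTCCCGC stands directly before TTTGGCGG, 35 and 27 bases before the start. E2F1, which can act on its own promoter, carries TTTGGCGC 20 bases before the start.

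The members differed widely in level. Compared per deposited gene length, mean FPKM over the 12 libraries ran from 174.2 for PCNA to 1.12 for POLA2. PCNA is the sliding clamp that tethers polymerases to DNA, and POLA2 the regulatory subunit of DNA polymerase alpha. FEN1 (119.9 FPKM), which trims Okazaki fragments, MCM3 (106.9 FPKM) and MCM7 (102.3 FPKM) followed PCNA. CCNE2, GINS3 and GINS4 stood at 2.95, 4.01 and 6.03 FPKM, just above POLA2. The 6 MCM2-7 subunits, which assemble in equal numbers in the helicase, ranged from 15.2 FPKM for MCM5 to 106.9 FPKM for MCM3. The gene length used was 7338 bases for MCM5 and 3650 for MCM3. How far it matches the transcripts expressed was not checked, so part of this range may stem from length. The plot of FPKM by role shows that the differences in FPKM between genes were far larger than those between the 4 sets of libraries.

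**Figure D1:**
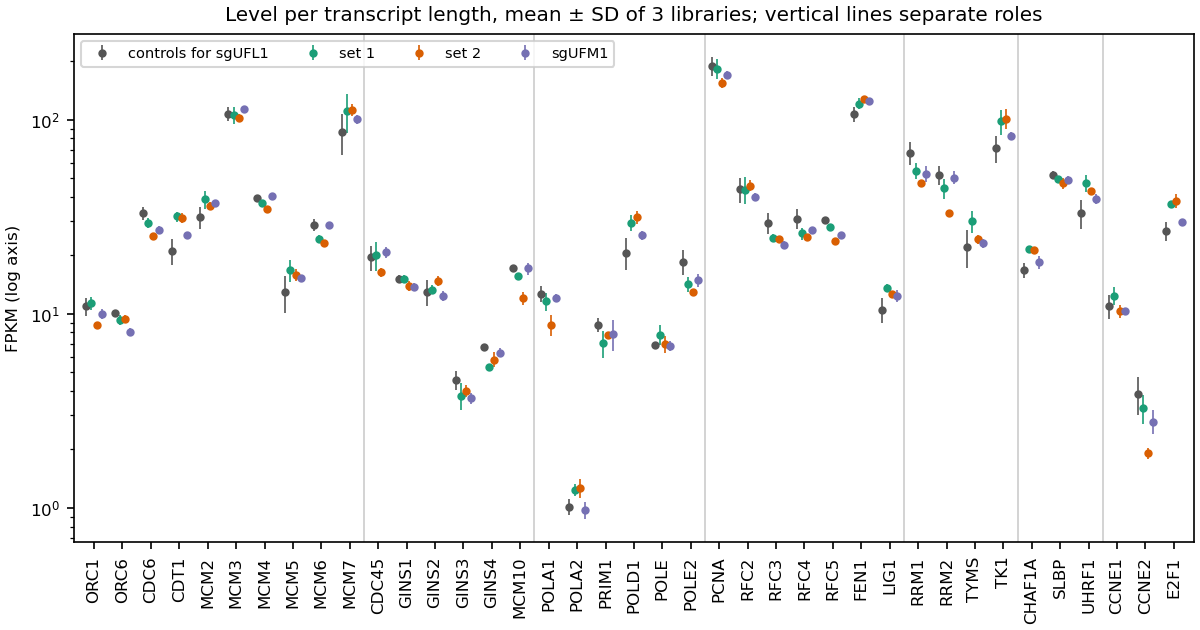
Mean FPKM of each of the 39 genes (log axis) in the controls for sgUFL1, set 1, set 2 and the sgUFM1 libraries, with bars of 1 SD over 3 libraries, grouped by role in replication. Levels run from 174.2 FPKM for PCNA to 1.12 FPKM for POLA2 over all libraries, and CCNE2 is lowest in set 2.

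A test for any difference among the 4 groups, which does not depend on the naming, called 21 of the 39 members, or 53.8%, where 41.5% of all genes tested were called (edgeR quasi-likelihood test, Benjamini-Hochberg adjusted p under 0.05). All 39 members passed the filter on low counts in every comparison. The 12 with the smallest p were MCM10, RRM2, CDT1, E2F1, CCNE2, POLD1, POLA1, RFC5, RRM1, CDC6, POLE2 and MCM6. They did not move as 1 block. Once offsets per library for GC content and gene length were added, 14 members were called, against 21.7% of all genes, and 9 were called both ways: RRM2, UHRF1, CDC6, RFC5, MCM10, RFC3, POLA1, ORC6 and ORC1. In bulk RNA, fewer cells in S phase and less RNA per cell in S phase cannot be told apart.

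**Figure D2:**
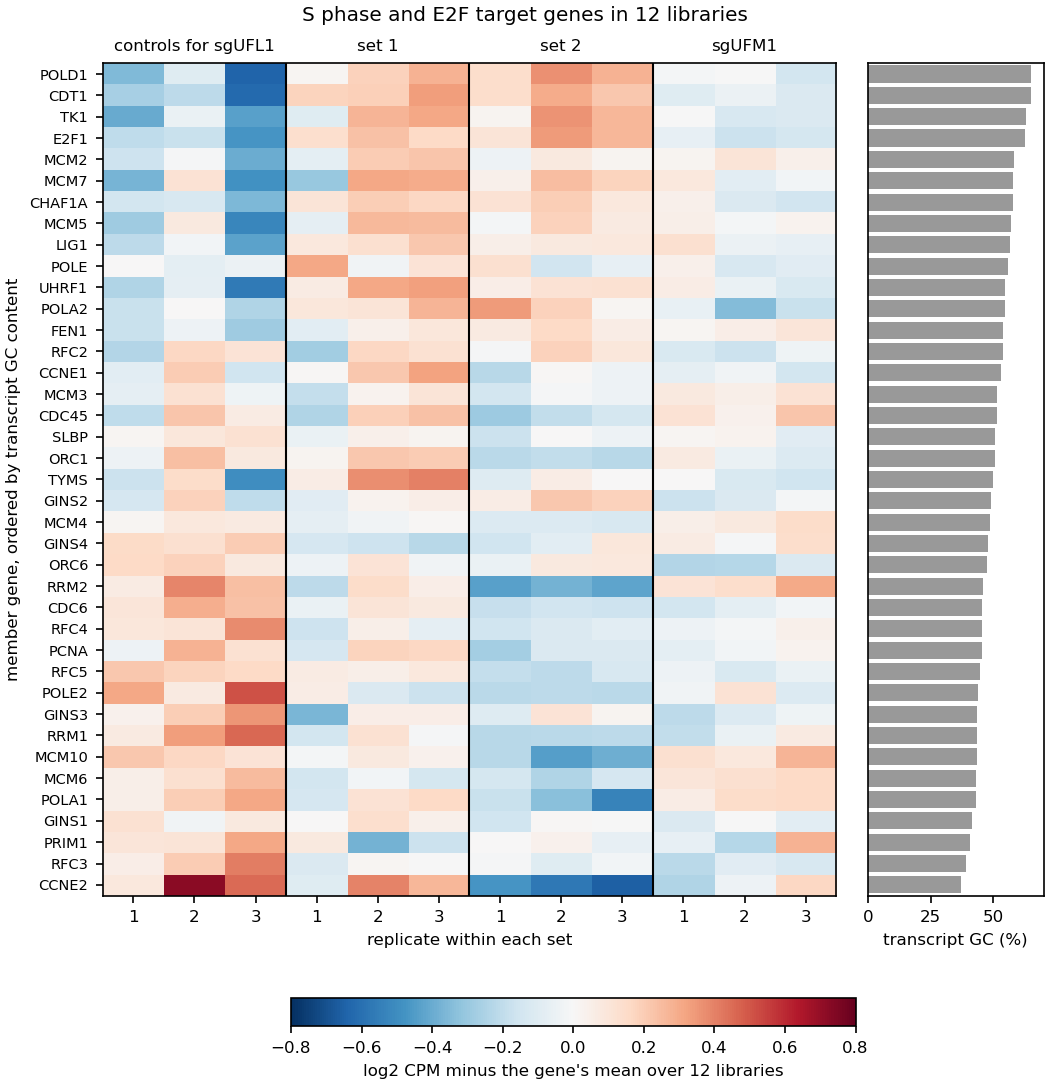
Log2 CPM of each gene minus its mean over the 12 libraries (colour), with genes ordered from GC-rich at the top to GC-poor at the bottom and libraries grouped in 4 sets of 3; the bars at the right give the transcript's GC content in percent. In the controls for sgUFL1 most GC-rich genes are low and most GC-poor genes high, and in set 2 RRM2, MCM10, POLA1 and CCNE2 are low.

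For sgUFL1 against its own controls the members' calls depended on the naming. Under the names of the FPKM table, set 2 against the controls for sgUFL1, 6 members rose and 10 fell, where 17.4% of all genes rose and 18.4% fell. The median log2 fold change was -0.13 over the members and -0.03 over all genes. Those that rose were CDT1, POLD1, E2F1, TK1, UHRF1 and CHAF1A, and those that fell were RRM2, CCNE2, MCM10, RRM1, POLA1, POLE2, CDC6, RFC5, RFC4 and MCM6. Calls of CDT1, POLD1, CCNE2, MCM10, POLE2, RRM1 and RRM2 were kept when any 1 of the 6 libraries was left out, and those of the other 9 were lost at least once, with 8 members called in all without set 2 replicate 2 or without set 2 replicate 3 and 22 without replicate 2 of the controls. The shares of all genes called in those fits were 16%, 17.1% and 44.9%. Under the names of the count table, set 1 against the same controls, 0 members were called by edgeR, where 1.1% of all genes were. At an unadjusted p under 0.05 there were 12 of 39 members and 4205 of 14996 genes. DESeq2 called 6 members higher (CDT1, CHAF1A, E2F1, POLD1, TK1 and UHRF1), against 8.68% of all genes higher. Without replicate 2 of the controls, 9 rose and POLE2 fell in set 1, against 15.7% of all genes. Without set 1 replicate 1, CDT1 rose, where 2.48% of all genes were called. Without any other 1 library 0 members were called, against 0% to 0.00651% of all genes. The median was 0.01 over the members, 0.32 over those with a GC content of at least 50% and -0.18 over the rest. Both comparisons use the same 3 control libraries.

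The direction of these fold changes followed the GC content of the transcript. Of the 39 members, 19 had a GC content of at least 50% and 20 were below it. In set 2 against the controls, all 6 that rose belonged to the first class and all 10 that fell to the second. The median log2 fold change was 0.26 in the GC-rich members and -0.32 in the GC-poor members. Spearman's coefficient between GC content and fold change, across 39 genes measured in the same libraries and not independent of one another, was 0.86, and over 15170 genes it was 0.74. For set 1 against the same controls it was 0.86 over the members and 0.75 over 14990 genes. With offsets for GC and length, the coefficient over the members was 0.11. The calls were then 0 higher and 4 lower (RRM2, SLBP, CDC45 and ORC1), where 4.9% of all genes rose and 4.07% fell, and 5 of the 16 first called had a fold change of the opposite sign. RRM2 was the member called both ways. The offsets are fitted to each library's trend with GC content and length, so a smaller coefficient is built in. They would also take out a real change that runs with GC content. The part of GC content in these differences was not tested.

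**Figure D3:**
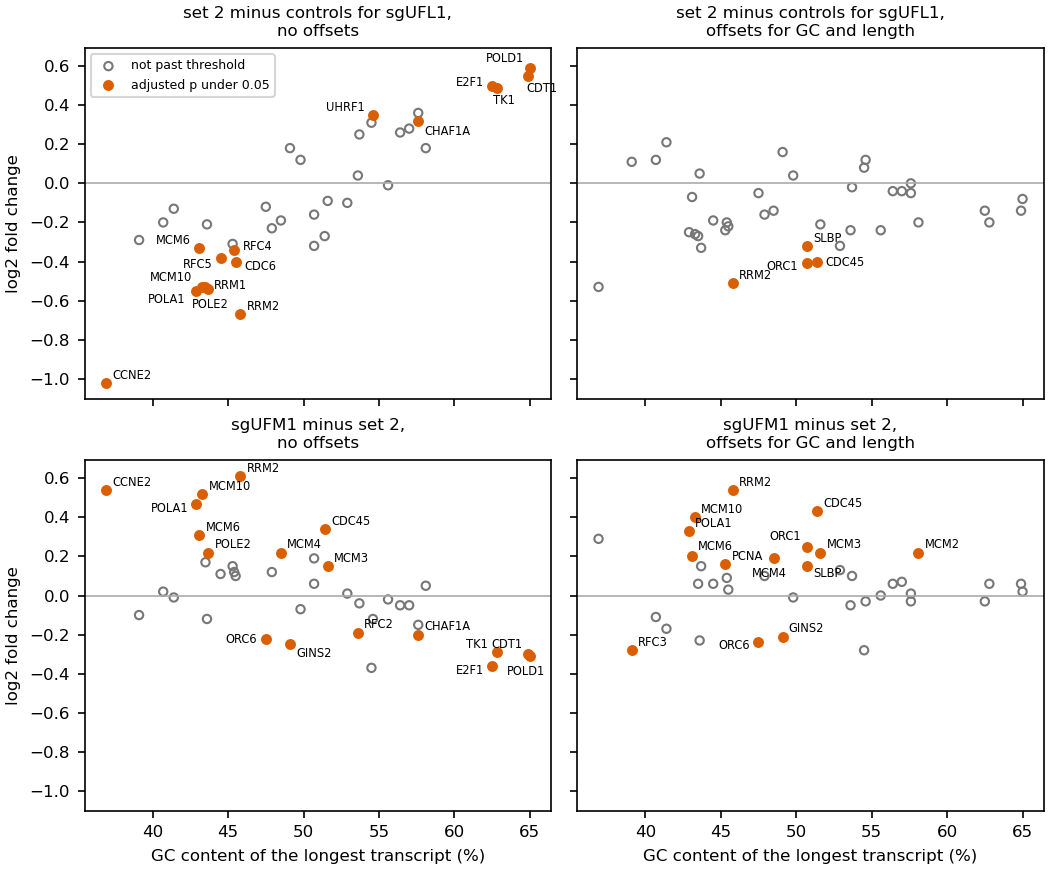
Log2 fold change of the 39 genes against the GC content of their longest transcript (percent), for set 2 minus the controls for sgUFL1 (top) and sgUFM1 minus set 2 (bottom), without offsets (left) and with GC and length offsets (right). Filled points are past an adjusted p of 0.05. The slope across genes at the top left (Spearman's coefficient 0.86) is not seen with offsets (0.11), which remove such slopes by design. RRM2 is called in all 4 panels.

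For sgUFM1 the contrast with its own controls was likewise split by naming. Under the names of the count table, sgUFM1 against set 2, 9 members rose and 8 fell, where 19.3% of all genes rose and 18.5% fell, and the median was 0.01 for both the members and all genes. Those that rose were RRM2, MCM10, POLA1, CCNE2, CDC45, MCM6, MCM4, POLE2 and MCM3, and those that fell were E2F1, POLD1, CDT1, TK1, GINS2, ORC6, CHAF1A and RFC2. With offsets 11 rose and 3 fell, against 16.2% and 17% of all genes, so the balance of the members moved to higher, and 9 calls were shared: RRM2, MCM10, POLA1, CDC45, MCM6, MCM4 and MCM3 higher, GINS2 and ORC6 lower. PCNA, MCM2, SLBP, ORC1 (all higher) and RFC3 (lower) were called only with offsets. The 17 calls without offsets fell to 11 without set 2 replicate 2, without set 2 replicate 3 or without sgUFM1 replicate 2, where 27.6%, 27.4% and 27% of all genes were called. Spearman's coefficient with GC content over the members was -0.62 without and -0.12 with offsets, a drop that the offsets build in. Over 15078 genes it was -0.46 without offsets. Under the names of the FPKM table, sgUFM1 against set 1, 0 members rose and CDT1, E2F1 and TYMS fell, where 4.57% of all genes rose and 5.15% fell. Without set 1 replicate 1, 2 rose (GINS4 and MCM6) and 15 fell, against 26.7% of all genes called. Without any 1 of the other 5 libraries 0 members were called, against 0.768% to 5.27% of all genes.

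The sgUFM1 libraries and the controls for sgUFL1, named alike in both tables, were also compared, although these controls belong by title to the other guide. There edgeR called 0 of 39 members, where 10% of all genes were called. The members' median was -0.06 and their range -0.47 (CCNE2) to 0.29 (POLD1). At an unadjusted p under 0.05 there were 10 of 39 members and 4282 of 15035 genes. DESeq2 called 2 members lower, RRM1 and RFC3, against 6.4% of all genes lower. Without replicate 2 of the controls 9 members rose (CDT1, FEN1, LIG1, MCM2, MCM5, MCM7, POLD1, TK1 and UHRF1) and 4 fell (ORC6, POLE2, RFC3 and RRM1), against 27.1% of all genes called. Without any 1 of the other 5 libraries 0 members were called, against 1.78% to 5.83% of all genes. Spearman's coefficient with GC content over the members was 0.8 without and 0.056 with offsets, a drop that the offsets build in. Over 15030 genes it was 0.52 without offsets.

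Origin licensing comprises ORC1 and ORC6 of the origin recognition complex, the loaders CDC6 and CDT1, and the helicase subunits MCM2-7. CDT1, which brings MCM2-7 to origins and is destroyed in S phase, lies at chr16:88803213-88809258 on the plus strand of GRCh38. It was measured at 75.3, 78.6 and 58.8 CPM in the controls for sgUFL1, 102.7, 103.5 and 114.1 in set 1, 99.9, 111.4 and 105.2 in set 2, and 84.6, 87.7 and 83.8 in the sgUFM1 libraries. The controls for sgUFL1 were lowest and the sgUFM1 libraries lay between them and sets 1 and 2 without overlap. The log2 difference of set 2 from the controls was 0.55 (SE 0.12, edgeR adjusted p = 0.0052), that of set 1 was 0.60 (SE 0.13, edgeR adjusted p = 0.054), and sgUFM1 was lower than set 2 by -0.30 (SE 0.07, edgeR adjusted p = 0.0025) and than set 1 by -0.32 (SE 0.07, edgeR adjusted p = 0.022). With offsets these were -0.14, 0.01, 0.06 and -0.07 and none was called. The call against set 1 was lost without set 1 replicate 2 (-0.35) or 3 (-0.27) and without sgUFM1 replicate 1 (-0.32), 2 (-0.34) or 3 (-0.30). CDT1 has a GC content of 64.9%. Sets without overlap, given here and below, were common. Set 2 lay wholly above the controls in 25.3% of all genes and below in 24.5%, and in 9 and 17 members. sgUFM1 lay wholly above set 2 in 23.5% of all genes and below in 23.2%, and in 15 and 9 members. In the other comparisons the shares of all genes were 15.5% to 17.1%. Shares over more than 2 sets were not counted.

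CDC6, the other loader (chr17:40287633-40304657, plus strand, GC 45.5%), had 170.5, 195.2 and 188 CPM in the controls for sgUFL1, 153.7, 171.6 and 168.6 in set 1, 140.1, 143.2 and 142 in set 2, and 143.9, 151.1 and 157.3 in the sgUFM1 libraries. Set 2 lay below all other libraries. It was lower than the controls by -0.40 (SE 0.11, edgeR adjusted p = 0.011), a call lost without set 2 replicate 2 or 3 (-0.40 each) and with offsets (-0.22). CDC6 and CDT1, which act in the same step, thus had fold changes of opposite sign in set 2 without offsets and of the same sign with them.

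MCM6 (chr2:135839626-135876426, minus strand, GC 43.1%) had 111.7, 118.4 and 128.7 CPM in the controls for sgUFL1, 97.6, 106.6 and 98.1 in set 1, 98.2, 91.7 and 98.6 in set 2, and 115.8, 118.5 and 120.8 in the sgUFM1 libraries. The sgUFM1 libraries and the controls overlapped, and both lay above sets 1 and 2. Relative to set 2, MCM6 was higher in sgUFM1 by 0.31 (SE 0.07, edgeR adjusted p = 0.0015), called in all 13 alternatives and 0.20 with offsets. Relative to the controls, set 2 was lower by -0.33 (SE 0.11, edgeR adjusted p = 0.029), a call lost without control replicate 3 (-0.27), without set 2 replicate 1 (-0.33), 2 (-0.29) or 3 (-0.35), and with offsets (-0.07).

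Among the other helicase subunits, MCM4 had 243.8 to 247.1 CPM in set 2 and 275.9 to 295 CPM in the sgUFM1 libraries, a rise of 0.22 (SE 0.06, edgeR adjusted p = 0.0072) and of 0.19 with offsets, called both ways. MCM3 rose from 355.6 to 390.8 CPM in set 2 to 406.8 to 427 CPM in sgUFM1, by 0.15 (edgeR adjusted p = 0.046), and by 0.22 with offsets. The call of MCM3 without offsets was lost when any 1 of the 6 libraries was left out (0.11 to 0.18), and kept in 2 of 13 alternatives. MCM2, MCM5 and MCM7, with GC contents of 58.1%, 57% and 57.6%, had differences of 0.05, -0.05 and -0.15 that were not called, and MCM2 was called with offsets (0.22). ORC6 fell in sgUFM1 against set 2, from 38.6 to 42.4 CPM to 33.9 to 37 CPM, by -0.22 (SE 0.08, edgeR adjusted p = 0.044) and by -0.24 with offsets. The call of ORC6 was lost without set 2 replicate 2 or 3 (-0.20 each) and without sgUFM1 replicate 1 (-0.19) or 2 (-0.20). ORC1, the largest subunit of the complex, was at 27.9, 28.3 and 27.8 CPM in set 2 and at 30 to 38.2 CPM in the other 9 libraries. Its difference from the controls was -0.32 (edgeR adjusted p = 0.058), and -0.41 with offsets, where it was called.

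The helicase is activated by CDC45 and the GINS complex, and MCM10 joins as it opens DNA. MCM10 (chr10:13161554-13211104, plus strand, GC 43.3%) had the smallest p of all members across the 4 groups (edgeR adjusted p = 0.0012). It had 97.8, 94.4 and 90.7 CPM in the controls for sgUFL1, 83.5, 88.8 and 86.2 in set 1, 72.1, 62 and 64.1 in set 2, and 92, 89.3 and 101.5 in the sgUFM1 libraries. Set 2 lay below all other libraries and set 1 below the sgUFM1 libraries and the controls. The difference of set 2 from the controls was -0.53 (SE 0.11, edgeR adjusted p = 0.0038), and -0.26 with offsets, where it was not called. sgUFM1 was higher than set 2 by 0.52 (SE 0.08, edgeR adjusted p = 5e-05), called in all 13 alternatives and 0.40 with offsets.

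CDC45 had 44.5, 47.5 and 49.3 CPM in set 2 and 59, 55.7 and 63.4 CPM in the sgUFM1 libraries. It rose by 0.34 (SE 0.08, edgeR adjusted p = 0.0022), and by 0.43 with offsets. GINS2 went the other way in the same comparison, from 45.5 to 50.9 CPM to 38.9 to 43.3 CPM, a fall by -0.25 (SE 0.08, edgeR adjusted p = 0.023) and by -0.21 with offsets. The GINS2 call without offsets was lost without set 2 replicate 2 (-0.22) or 3 (-0.23) and without sgUFM1 replicate 1 (-0.21) or 2 (-0.24). GINS1, GINS3 and GINS4, which form 1 complex with GINS2, had differences of -0.01, -0.12 and 0.12 there, none called. The annotated span of GINS2 overlaps that of GSE1 on the opposite strand. Reads from any stretch that their exons share cannot be told apart, and whether exons overlap was not checked.

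Of the polymerases, POLA1, POLA2 and PRIM1 belong to DNA polymerase alpha and primase, which start each new strand. POLD1 is the catalytic subunit of polymerase delta, and POLE and POLE2 belong to polymerase epsilon. POLA1 (chrX:24693919-24996986, plus strand, GC 42.9%) had 73.5, 81.8 and 88.2 CPM in the controls for sgUFL1, 64.9, 77.3 and 79.4 in set 1, 62.9, 56.4 and 49.3 in set 2, and 74.3, 78.8 and 79.5 in the sgUFM1 libraries. Set 2 lay below all other libraries. sgUFM1 was higher than set 2 by 0.47 (SE 0.09, edgeR adjusted p = 0.00028), called in all 13 alternatives and 0.33 with offsets. Set 2 was lower than the controls by -0.55 (SE 0.13, edgeR adjusted p = 0.006), a call lost without set 2 replicate 3 (-0.46) and with offsets (-0.25).

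POLD1 (chr19:50384204-50418016, plus strand, GC 65%) had 102.3, 122.1 and 84 CPM in the controls for sgUFL1, 132, 148.3 and 158.6 in set 1, 144.2, 168.1 and 158.5 in set 2, and 129.6, 130.5 and 117.8 in the sgUFM1 libraries. Sets 1 and 2 lay above the other 6 libraries. Set 2 was higher than the controls by 0.59 (SE 0.13, edgeR adjusted p = 0.0056) and sgUFM1 lower than set 2 by -0.31 (SE 0.07, edgeR adjusted p = 0.002). With offsets the differences were -0.08 and 0.02 and neither was called. POLD1 overlaps AC020909.1 on the same strand.

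POLE2 (chr14:49643555-49688422, minus strand, GC 43.7%) had 55.2, 46.9 and 63.7 CPM in the controls for sgUFL1, 46.5, 41.2 and 39.7 in set 1, 38.4, 38.6 and 38.5 in set 2, and 43.8, 48.4 and 41.4 in the sgUFM1 libraries. Set 2 was below every other library, and lower than the controls by -0.54 (SE 0.13, edgeR adjusted p = 0.0071), or -0.33 with offsets, where it was not called. The rise of POLE2 in sgUFM1 over set 2 was 0.22 (SE 0.08, edgeR adjusted p = 0.044), and its call was kept in 1 of 13 alternatives. Among others, it was lost with offsets, without set 2 replicate 1 (0.21), 2 (0.22) or 3 (0.22) and without sgUFM1 replicate 1 (0.23) or 2 (0.16). POLE, its catalytic partner, with a GC content of 55.6%, had differences of -0.01 for set 2 against the controls and -0.02 for sgUFM1 against set 2. POLA2 and PRIM1 were called in neither comparison.

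PCNA is loaded on DNA by the clamp loader, to which RFC2, RFC3, RFC4 and RFC5 belong, and FEN1 and LIG1 finish and join Okazaki fragments. RFC5 (chr12:118013588-118033130, plus strand, GC 44.5%) had 101.7, 99 and 97.9 CPM in the controls for sgUFL1, 91.8, 90.4 and 92.8 in set 1, 76.7, 75.8 and 80.2 in set 2, and 85.2, 80.6 and 84.6 in the sgUFM1 libraries. No pair of the 4 sets overlapped. The difference of set 2 from the controls was -0.38 (SE 0.10, edgeR adjusted p = 0.013), lost without set 2 replicate 1 (-0.35), 2 (-0.36) or 3 (-0.40) and with offsets (-0.19).

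RFC4 in set 2 (73.3, 75.4 and 77.1 CPM) was below the controls (87.1, 87.7 and 106.1 CPM) by -0.34 (SE 0.12, edgeR adjusted p = 0.037). The call was lost without control replicate 3 (-0.22), without set 2 replicate 1 (-0.30), 2 (-0.33) or 3 (-0.35), and with offsets (-0.20). RFC2 fell in sgUFM1 against set 2 by -0.19 (SE 0.07, edgeR adjusted p = 0.049), lost without set 2 replicate 2 (-0.14) or 3 (-0.19), without sgUFM1 replicate 1 (-0.18) or 2 (-0.16) and with offsets (-0.05). RFC3, with a GC content of 39.1%, had -0.10 there, and was called at -0.28 with offsets. PCNA had 213.2, 238.1 and 237.9 CPM in set 2 and 244, 254.1 and 262.5 CPM in sgUFM1, a difference of 0.15 that was not called without offsets and was called at 0.16 with them. FEN1 and LIG1 were called in none of the pairwise comparisons over all 6 libraries.

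Deoxynucleotides are made by ribonucleotide reductase, of which RRM1 is the large and RRM2 the small, S phase limited subunit, and by thymidylate synthase (TYMS) and thymidine kinase 1 (TK1). RRM2 (chr2:10120698-10131419, plus strand, GC 45.8%) had 248, 310.2 and 279.5 CPM in the controls for sgUFL1, 205.1, 262 and 246.1 in set 1, 175.6, 182.3 and 176.5 in set 2, and 255.2, 260.6 and 292.6 in the sgUFM1 libraries. Set 2 lay below all 9 other libraries, and the other 3 sets overlapped. Set 2 was lower than the controls by -0.67 (SE 0.11, edgeR adjusted p = 0.0017), and sgUFM1 was higher than set 2 by 0.61 (SE 0.07, edgeR adjusted p = 8.4e-07). With offsets these differences were -0.51 and 0.54. Both were called in all 13 alternatives. Against the other sets the difference of sgUFM1 was -0.05 (controls for sgUFL1) and 0.18 (set 1), neither called. RRM2 overlaps AC007240.1 on the same strand and has 3 processed pseudogenes, so how the authors' counting split its reads is uncertain.

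RRM1 (chr11:4094707-4138876, plus strand, GC 43.5%) had 243.3, 290.8 and 317.6 CPM in the controls for sgUFL1, 208.5, 251.2 and 229.5 in set 1, 197.8, 199.4 and 199.9 in set 2, and 202, 222.4 and 242.7 in the sgUFM1 libraries. The controls for sgUFL1 reached highest and set 2 was lowest. RRM1 fell in set 2 by -0.53 (SE 0.12, edgeR adjusted p = 0.0051), and by -0.27 with offsets, where it was not called.

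TK1, the salvage enzyme (GC 62.8%), had 123.5, 157.2 and 120.9 CPM in the controls for sgUFL1, 152.7, 196.7 and 202.7 in set 1, 166, 209.5 and 196.2 in set 2, and 162.9, 149.4 and 150.6 in the sgUFM1 libraries. Set 2 lay above the controls and the sgUFM1 libraries. The rise over the controls was 0.49 (SE 0.13, edgeR adjusted p = 0.012), lost without control replicate 1 (0.45) and without set 2 replicate 2 (0.42) or 3 (0.47). sgUFM1 was lower than set 2 by -0.29 (SE 0.08, edgeR adjusted p = 0.0044). Offsets turned the sign of both, to -0.20 and 0.06.

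TYMS, which makes thymidylate, had 63.5, 79.1 and 80.7 CPM in set 1 and 61.2, 56.1 and 54.7 CPM in sgUFM1, without overlap. Its difference of -0.38 (SE 0.10, edgeR adjusted p = 0.04) was -0.34 and called with offsets. The call was kept in 5 of 13 alternatives. It was lost with the replicate block, with offsets and block, and in the fit of all 12 libraries. The call was lost without set 1 replicate 2 (-0.33) or 3 (-0.32) and without sgUFM1 replicate 1 (-0.43), 2 (-0.36) or 3 (-0.34). The annotated span of TYMS overlaps those of ENOSF1 and TYMSOS on the other strand, so reads from any shared exon stretch cannot be told apart.

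Of the regulators, E2F1 (chr20:33675683-33686404, minus strand, GC 62.5%) is an activator of the E2F family, and CCNE1 and CCNE2 are cyclins that drive entry into S phase. E2F1 had 71.2, 72.5 and 59.1 CPM in the controls for sgUFL1, 89.8, 96.2 and 91.5 in set 1, 88.1, 103.9 and 98.4 in set 2, and 78.2, 72.9 and 74.3 in the sgUFM1 libraries. Sets 1 and 2 overlapped and lay above the other 6 libraries. The difference of set 2 from the controls was 0.50 (SE 0.12, edgeR adjusted p = 0.0067), lost without set 2 replicate 2 (0.45). sgUFM1 was lower than set 2 by -0.36 (SE 0.08, edgeR adjusted p = 0.001) and than set 1 by -0.30 (SE 0.07, edgeR adjusted p = 0.028). The latter call was lost without set 1 replicate 2 (-0.27) or 3 (-0.31) and without sgUFM1 replicate 1 (-0.33), 2 (-0.28) or 3 (-0.29). With offsets the 3 differences were -0.14, -0.03 and -0.09, none called.

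CCNE2, the member with the lowest GC content (36.9%), had 13.3, 20.7 and 17.2 CPM in the controls for sgUFL1, 11.7, 16.5 and 15.1 in set 1, 9.09, 8.45 and 7.99 in set 2, and 10.7, 12.2 and 14.1 in the sgUFM1 libraries. Set 2 lay below all other libraries. Its difference from the controls, -1.02 (SE 0.18, edgeR adjusted p = 0.0021), was the largest in size among the 39 members in that comparison. The sgUFM1 libraries were higher than set 2 by 0.54 (SE 0.14, edgeR adjusted p = 0.0049). With offsets the values of CCNE2 were -0.53 and 0.29, not called. CCNE1, at 24.1 to 35.1 CPM over all libraries (GC 52.9%), was called in none of the pairwise comparisons. CCNE2 overlaps INTS8 and NDUFAF6 on the other strand.

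The plot of levels per library shows 8 of these genes side by side. In set 2, RRM2, MCM10, POLA1, MCM6 and CCNE2 were at their lowest mean, while CDT1, E2F1 and POLD1 were low in the sgUFM1 libraries and the controls for sgUFL1.

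**Figure D4:**
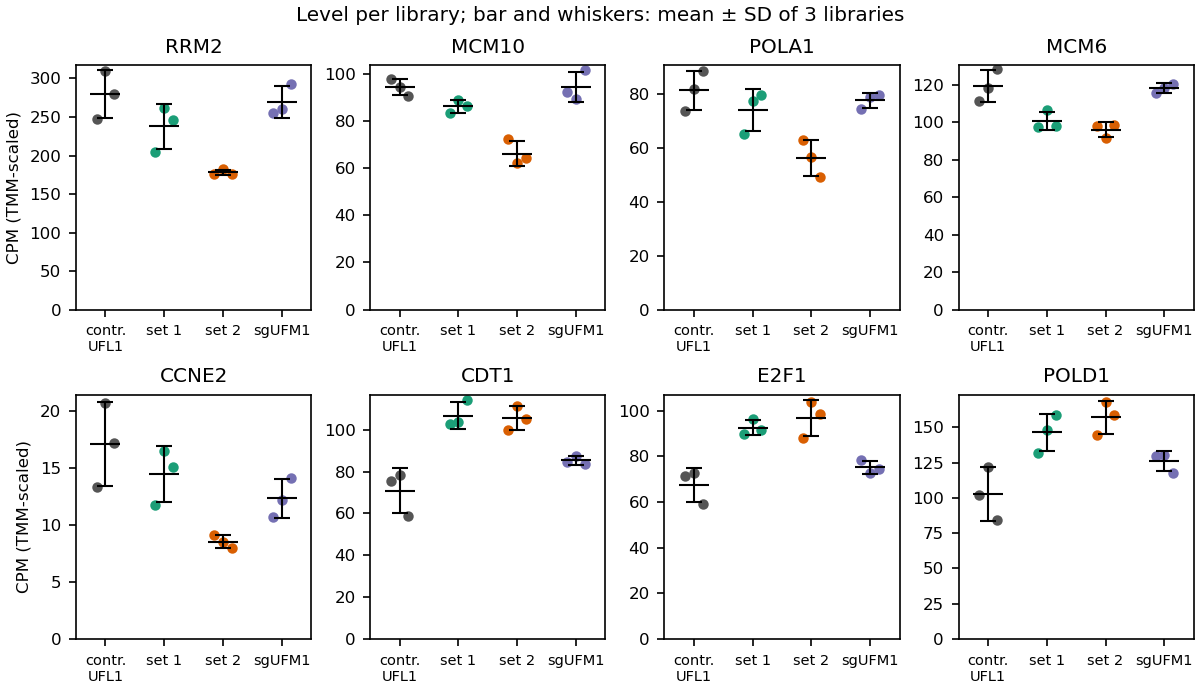
CPM (TMM-scaled, linear axis from 0) of 8 genes in each library, with the mean and 1 SD of 3 libraries; the 4 sets are the controls for sgUFL1 (contr. UFL1), set 1, set 2 and sgUFM1. RRM2 lies at 175.6 to 182.3 CPM in set 2 and at 205.1 to 310.2 CPM elsewhere, and CDT1 lies at 58.8 to 87.7 CPM in the controls for sgUFL1 and sgUFM1 and at 99.9 to 114.1 CPM in sets 1 and 2.

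The members with a role in chromatin are CHAF1A, the large subunit of the histone chaperone CAF-1, and UHRF1, which recruits maintenance DNA methylation. SLBP, grouped with them, binds histone mRNA. UHRF1 had 176.1, 198.2 and 140.9 CPM in the controls for sgUFL1, 217.5, 258.1 and 261.6 in set 1, 215.6, 225.2 and 226.3 in set 2 and 216.6, 200.9 and 191.2 in the sgUFM1 libraries. The controls for sgUFL1 overlapped the sgUFM1 libraries and lay below sets 1 and 2. Set 2 was higher than the controls by 0.35 (SE 0.13, edgeR adjusted p = 0.042), a call lost without control replicate 1 (0.39) or 3 (0.24), without set 2 replicate 1 (0.39), 2 (0.35) or 3 (0.35), and with offsets (0.12). Set 1 was higher by 0.53 (edgeR adjusted p = 0.079).

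CHAF1A had 76.1, 77 and 65.5 CPM in the controls for sgUFL1 and 91.2, 96.5 and 89.1 CPM in set 2, a rise of 0.32 (SE 0.11, edgeR adjusted p = 0.036). It was lost without control replicate 3 (0.26), without set 2 replicate 1 (0.35), 2 (0.29) or 3 (0.35), and turned to -0.05 with offsets. In sgUFM1, at 86.6, 77.7 and 75.5 CPM, it was lower than set 2 by -0.20 (SE 0.08, edgeR adjusted p = 0.043), lost without set 2 replicate 2 (-0.17) or 3 (-0.22), without sgUFM1 replicate 2 (-0.18) or 3 (-0.16) and with offsets (-0.03). SLBP, at 89.8 to 110 CPM over all libraries, was called only with offsets, at -0.32 in set 2 against the controls and 0.15 in sgUFM1 against set 2.

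The interaction, sgUFM1 minus its controls less sgUFL1 minus its controls, is the same sum of sets under both namings and so does not depend on them. It called 10 members higher and 9 lower, where 17% of all genes were higher and 17.9% lower, with a median of 0.13 over the members and 0.02 over all genes. The positive values were led by RRM2 (0.83, SE 0.15, edgeR adjusted p = 0.00095) and MCM10 (0.64, SE 0.12, edgeR adjusted p = 0.0013), and the negative ones by CDT1 (-0.90, SE 0.14, edgeR adjusted p = 0.00053) and E2F1 (-0.82, SE 0.13, edgeR adjusted p = 0.0006). All 10 higher members had a GC content under 50% and 8 of the 9 lower ones a GC content of at least 50%, POLA2 and LIG1 among them. The exception was TYMS (49.8%). Spearman's coefficient with GC content was -0.83 over the members and -0.68 over all genes. With offsets 3 were higher (RRM2, MCM3 and SLBP) and 2 lower (RFC3 and GINS1), against 3.95% and 5.44% of all genes. RRM2 was the member called both ways (0.65 with offsets), and its call was kept in all 18 alternatives. The calls of MCM4, RRM1, TYMS, GINS4, POLA2, RFC4, LIG1 and CCNE2 were each lost when some 1 library was left out, and 11 members were called without set 2 replicate 2 and 12 without set 1 replicate 3 or without sgUFM1 replicate 3. In those fits 25.1%, 27.5% and 26.1% of all genes were called.

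Other genes of the pathway, taken from lists made with the results of these data known and holding no member, were read beside the 39. Their counts stand against 17.4% of all genes higher and 18.4% lower in set 2 against the controls for sgUFL1 (4.9% and 4.07% with offsets), and 19.3% higher and 18.5% lower in sgUFM1 against set 2 (16.2% and 17% with offsets). In set 2 against the controls for sgUFL1, DNA repair and checkpoint genes under E2F control had 1 higher and 16 lower of 24 tested, with a median of -0.49, and 4 lower with offsets. USP1, which removes ubiquitin from PCNA and FANCD2, fell by -0.69 (-0.32 with offsets, called). In sgUFM1 against set 2 the same list had 16 higher and 2 lower, and 4 and 2 with offsets. The other licensing and firing genes had 1 higher and 10 lower of 18 in set 2 (4 lower with offsets) and 11 higher and 2 lower in sgUFM1 against set 2 (2 and 1 with offsets). TOPBP1, which helps load CDC45, fell by -0.70 in set 2 and rose by 0.57 in sgUFM1 over set 2, and was called with offsets in both (-0.39 and 0.41).

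G2 and mitosis genes, expressed after S phase, had 1 higher and 14 lower of 30 in set 2 against the controls for sgUFL1, and 4 lower with offsets. In sgUFM1 against set 2 they had 15 higher and 3 lower, and 13 and 4 with offsets, beside the same shares of all genes. KIF11, a mitotic kinesin, rose there by 0.63 (0.40 with offsets, called), and CDC20, the activator of the anaphase-promoting complex, fell by -0.42 (-0.19 with offsets, called). CDC20 has a GC content of 57.9% and KIF11 of 38.3%.

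Among 32 regulators of RB, E2F and cyclin-dependent kinases tested, 5 were higher and 10 lower in set 2 against the controls, where 17.4% of all genes were higher and 18.4% lower, and 1 and 2 with offsets. RB1 itself, at a mean of 114.1 CPM in the controls for sgUFL1 and 75.8 CPM in set 2, fell by -0.61 (SE 0.12, edgeR adjusted p = 0.0035), and was at -0.10 with offsets, not called (GC 37.3%). CDKN1A, the p21 inhibitor, rose in sgUFM1 against the controls for sgUFL1 by 0.79 (SE 0.15, edgeR adjusted p = 0.0084), from a mean of 85.1 to 147.5 CPM, and by 0.59 with offsets, called. In the same comparison the repressor E2F7 fell by -0.45 (SE 0.10, edgeR adjusted p = 0.019), and by -0.31 with offsets, called. The remaining lists in set 2 against the controls stand beside 17.4% of all genes higher and 18.4% lower (4.9% and 4.07% with offsets). Other fork and polymerase genes had 4 higher and 10 lower of 23 (1 and 3 with offsets). Other nucleotide supply genes had 3 and 6 of 16 (0 and 0), and other S phase chromatin genes 1 and 9 of 16 (0 and 1).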

How the data were processed

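RNA of MDA-MB-231 cells was isolated with TRIzol and made into standard Illumina libraries, per the labels' protocols. The strand setting is not stated, so reads from stretches shared with overlapping or antisense genes cannot be told apart. Overlaps were taken from the start and end of each gene, introns included. The submitters' processing notes name fastp 0.20.1, STAR 2.7.7a, featureCounts 2.0.0 and GRCh38, with settings not given in the sources used here. The authors deposited a table of raw counts and a table of FPKM values for 58735 genes. All 58735 IDs matched GENCODE release 29, the source of positions and of GC content (58676 genes). Each FPKM column matched 1 count column over 9901 genes, 6 under the same name and 6 with the groups sgUFL1 and sgCtrl for sgUFM1 exchanged. Libraries of a group differed beyond sampling noise (chi-square per gene 2.41 to 34.9), so none was treated as a duplicate.

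Counts were tested with edgeR 4.0.16 (R 4.3.3, limma 3.58.1; filterByExpr with a minimum count of 10, TMM scaling, quasi-likelihood test), with Benjamini-Hochberg adjustment over all genes tested and a threshold of 0.05. Each pairwise comparison was fitted on its 6 libraries, and the test of any difference and the interaction on all 12. The steps were tested on simulated data. Alternatives were RLE scaling, no filter, DESeq2 1.42.0, 1 fit of all 12 libraries, the replicate number as a block, offsets for GC content and gene length (lowess span 0.3, prior count 2), those offsets with the block, and leaving out each library. FPKM values were used only to compare levels between genes and carry no test. The labels do not say whether replicate numbers pair the samples, and the main fits used no pairing.

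The members and the other lists were chosen with earlier results of these data known. By rule, any of the 39 members could be named, with full values for up to 12 with the smallest p across the 4 groups and up to 4 called in each direction of a comparison, up to 3 called genes of each other list, UFL1 and UFM1, and the promoters of those 12 that held a motif within 250 bases. Values of further members were given after they had been seen.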

Additional observations from a re-analysis of the deposited data

Results flagged for a closer look

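The interaction test called 19 members (edgeR quasi-likelihood test, adjusted p under 0.05). Its value is the log2 change of sgUFM1 from its controls minus that of sgUFL1 from its controls, which is the same under both namings. Whether these values come from the guides or from differences in GC content between libraries was not tested. Of all genes 34.8% were called by the same test, and 9.38% with GC and length offsets. The value was positive for RRM2 (0.83), CCNE2 (0.77), MCM10 (0.64), POLA1 (0.60), POLE2 (0.59), MCM6 (0.55), RRM1 (0.47), GINS4 (0.45), RFC4 (0.37) and MCM4 (0.30). It was negative for CDT1 (-0.90), POLD1 (-0.83), E2F1 (-0.82), TK1 (-0.76), POLA2 (-0.67), UHRF1 (-0.65), CHAF1A (-0.57), TYMS (-0.51) and LIG1 (-0.42). All 10 positive members had a GC content under 50%, and once GC and length offsets were added RRM2 was the only one of the 19 still called.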

How the results depend on the processing

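Members called lower in sgUFM1 against the controls for sgUFL1 numbered 0, but 2 without the filter, 2 with DESeq2, 5 in 1 fit of all 12 libraries and 2 with the replicate block. Of all genes, 4.43% were lower there, and 3.42%, 6.4%, 7.69% and 5.15% in those settings in turn. In sgUFM1 against set 2, 5 were higher and 2 lower in the 12-library fit, against 9 and 8. All genes had 9.46% higher and 9.65% lower in that fit, against 19.3% and 18.5%. The members lower were 5 without the filter, 5 with the replicate block, 3 with GC and length offsets and 3 with offsets and block. Shares of all genes lower were 9.24%, 16%, 17% and 16.1% in turn. The members' median moved from 0.01 to 0.06 with offsets and 0.06 with offsets and block. In sgUFM1 against set 1, the 3 lower became 0 in the 12-library fit, 0 with the block, 1 with offsets and 0 with both. The share of all genes lower went from 5.15% to 2.91%, 3.34%, 3.55% and 2.56% in turn. In set 1 against the controls, 0 became 6 higher without the filter, 6 with DESeq2, and 10 higher and 4 lower in the 12-library fit. There 1.08% of all genes were higher, and 5.09% without the filter and 8.68% with DESeq2. In the 12-library fit 12.6% of all genes were higher and 9.3% lower. In set 2 against the controls, offsets left 0 higher and 4 lower, with or without the replicate block, and for the interaction 3 higher and 2 lower, with or without it. With offsets, 4.9% of all genes were higher and 4.07% lower in set 2, and 3.95% and 5.44% for the interaction. With offsets and block these shares were 5.22% and 3.76%, and 4.6% and 6.22%.

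With offsets, and likewise with offsets and the replicate block, the sign turned in sgUFM1 against set 2 for TK1 (0.06), CDT1 (0.06) and POLD1 (0.02). In set 2 against the controls it turned for TK1 (-0.20, and -0.19 with the block), CDT1 (-0.14), POLD1 (-0.08), E2F1 (-0.14) and CHAF1A (-0.05). In the interaction it turned for TK1 (0.15), CDT1 (0.06), POLD1 (0.09) and E2F1 (0.03). The cause was not tested. Of 55 called values of single members, 53 kept their call with DESeq2, 52 with RLE scaling, 46 with the block, 42 without the filter and 12 with offsets.

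Leaving out 1 library gave these ranges of members higher, lower and their median. For sgUFM1 against the controls for sgUFL1 they were 0 to 9, 0 to 4 and -0.09 to 0.0. For sgUFM1 against set 2 they were 7 to 8, 4 to 10 and 0.0 to 0.04, and against set 1 they were 0 to 2, 0 to 15 and -0.16 to -0.07. For set 1 against the controls they were 0 to 9, 0 to 1 and -0.05 to 0.08, and for set 2 they were 2 to 12, 5 to 13 and -0.16 to -0.07. The interaction gave 5 to 11, 6 to 12 and 0.05 to 0.19, and the test of any difference 16 to 26 members.

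Beside these ranges, calls over all genes in sgUFM1 against the controls for sgUFL1 numbered 1503 (2315 without the filter, 2565 in the 12-library fit, 275 to 4196 leaving out 1 library). Against set 2 they numbered 5697 (3023 in the 12-library fit, 4163 to 6525 leaving out 1 library), and against set 1 they numbered 1456 (901 in the 12-library fit, 896 with offsets and block, 118 to 4080 leaving out 1 library). In set 1 against the controls 165 genes were called (0 with RLE scaling, the block or offsets, 1921 without the filter, 1881 with DESeq2, 3463 in the 12-library fit, 0 to 2419 leaving out 1 library). In set 2 they numbered 5438 (1361 with offsets, 1363 with offsets and block, 2486 to 6985 leaving out 1 library). The test of any difference called 6558 (3425 with offsets, 3915 with both, 4683 to 7854 leaving out 1 library), and the interaction 5511 (1484, 1712, and 4061 to 6321).

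Same-numbered libraries had correlations of their deviations of -0.212 to 0.378, not all over 0.1 in any comparison, so the replicate block rests on a shared number only. In set 2 against the controls the lowest expressed members, POLA2 and CCNE2, had the largest standard errors (0.19 and 0.18).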
